A study of Mus musculus with 6 samples.

Results

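The small RNA host genes are long transcripts that carry small nucleolar RNAs (snoRNAs) or microRNAs inside them. They were taken from the gene table by symbol, as every gene named Snhg with a number, every gene named Mir with the ending hg, and Gas5, Dleu2 and Epb41l4aos. This gave 27 of the 31763 genes in the table, 16 of them snoRNA hosts and 11 microRNA hosts, and GENCODE tags all 27 as hosts of a small RNA. RNA of the medial prefrontal cortex (mPFC) was sequenced after ribosomal RNA had been removed, from 3 saline and 3 morphine samples of male C57BL/6J mice aged 8 to 10 weeks. Saline mice received 10 ml/kg saline and morphine mice 10 mg/kg morphine, each by intraperitoneal injection, in conditioned place preference (CPP), which pairs a chamber with a treatment and tests the memory of that pairing. Tissue was collected right after a retrieval test that followed about a week in the home cage without drug. The comparison asks which host genes of the mPFC differ after retrieval of a morphine-paired memory from those of mice trained with saline only. The groups also differ in morphine exposure and the drug-free time after it, which this design cannot tell apart from memory. The sources do not say whether a sample was 1 mouse or a pool, and the p-values cover the spread among these 6 samples.

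Most snoRNAs of mammals are cut from introns of a host transcript after splicing. Box C/D snoRNAs guide ribose methylation and box H/ACA snoRNAs guide pseudouridylation of ribosomal and spliceosomal RNA, and the spliced exons of many hosts are removed by nonsense-mediated decay. MicroRNAs are cut from a hairpin in a host transcript by Drosha and then Dicer, and pair with messenger RNAs through their seed. A host's level therefore stands for that of the carrier transcript, but reads of the small RNAs may enter its count. In the snoRNA hosts other than Snhg14, 33 of 40 small RNA genes lie within the merged exons of all transcripts. The snoRNAs and microRNAs themselves were not analysed here.

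Of 8 microRNA hosts with mature sequences in the RefSeq table of GRCm38.p6, 33 mature microRNAs were matched, with 30 distinct seeds. The sequences of the hosts whose levels differed most are shown here, with the seed (bases 2 to 8) in capitals. Dleu2 carries miR-15a-5p at chr14:61632075-61632096 and miR-16-5p at chr14:61631936-61631957 on the minus strand, which share the seed AGCAGCA.
miR-15a-5p: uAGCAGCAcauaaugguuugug
miR-16-5p: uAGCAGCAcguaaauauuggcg
Mir9-3hg carries miR-9-5p at chr7:79505279-79505301 on the plus strand, a microRNA of neural progenitors and neurons.
miR-9-5p: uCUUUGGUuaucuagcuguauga
Mir99ahg carries, on the plus strand, miR-99a-5p at chr16:77598940-77598961, let-7c-5p at chr16:77599672-77599693 and miR-125b-5p at chr16:77646279-77646300, whose seeds all differ.
miR-99a-5p: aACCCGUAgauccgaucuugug
let-7c-5p: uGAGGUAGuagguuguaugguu
miR-125b-5p: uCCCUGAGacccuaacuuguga
Mir670hg carries miR-129-5p at chr2:94241419-94241439 and miR-670-5p at chr2:94261358-94261379 on the minus strand.
miR-129-5p: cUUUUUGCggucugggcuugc
miR-670-5p: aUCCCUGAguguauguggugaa

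Among snoRNA hosts, Snhg17 and Snhg11 lie next to each other on chromosome 2 on opposite strands, and the snoRNAs in both resemble each other. Their sequences are from the GENCODE transcripts of GRCm38, and capitals mark the first match of ANANNA from base 51 and the last ACA, the letters of boxes H and ACA. Snhg17 holds Gm24411 at chr2:158356424-158356554, Gm26003 at chr2:158358360-158358472 and Gm23925 at chr2:158359798-158359929 on the minus strand.
Gm24411: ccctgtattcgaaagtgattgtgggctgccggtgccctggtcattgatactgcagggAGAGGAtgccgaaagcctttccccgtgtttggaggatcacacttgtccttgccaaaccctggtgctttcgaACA
Gm26003: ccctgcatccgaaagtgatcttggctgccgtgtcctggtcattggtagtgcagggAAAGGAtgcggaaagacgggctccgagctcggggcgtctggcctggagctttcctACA
Gm23925: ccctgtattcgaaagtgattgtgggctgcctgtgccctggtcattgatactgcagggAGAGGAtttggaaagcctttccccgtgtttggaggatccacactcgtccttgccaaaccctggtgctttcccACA
Snhg11 holds Gm25187 at chr2:158378222-158378354 and Gm25129 at chr2:158379534-158379666 on the plus strand.
Gm25187: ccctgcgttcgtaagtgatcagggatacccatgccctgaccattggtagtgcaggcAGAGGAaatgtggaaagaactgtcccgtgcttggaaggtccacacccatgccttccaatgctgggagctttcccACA
Gm25129: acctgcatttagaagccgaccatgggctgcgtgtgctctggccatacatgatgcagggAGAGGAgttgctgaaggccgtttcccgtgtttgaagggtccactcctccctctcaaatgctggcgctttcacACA
In global alignment the pair Gm24411 and Gm23925 was identical at 93.9% of columns, and the other pairs at 60.4% to 75.0%. On the transcript strand, 55.4% of the 717 GENCODE snoRNAs of 113 to 133 bases hold ANANNA from base 51 and ACA in the last 6 bases. Snhg18 carries 1 snoRNA, Snord123 at chr15:32241853-32241923 on the minus strand, shown with TGATGA (box C) and CTGA (box D) in capitals; 72.3% of the 343 GENCODE snoRNAs of 60 to 90 bases hold both on that strand.
Snord123: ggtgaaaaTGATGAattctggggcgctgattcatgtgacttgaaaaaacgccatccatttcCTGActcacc

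Total counts were 17984153 to 23529592 per library, and the host genes took 0.182% to 0.250% of them. Normalized CPM below are counts relative to the library total as scaled by TMM, and FPKM values are those of the deposited table. Saline library 1 stood apart from the rest, since 12 of 13 olfactory bulb markers exceeded the highest other library by over 2 times there, and 0 did so in each of the other 5 libraries; the bulb is the frontal neighbour of the mPFC. Summed over the list, these markers came to 800 CPM in that library and to 250 to 283 CPM in the others. Without it the log2 fold changes described below were -0.28 for Mir9-3hg and Mir670hg, -0.30 for Snhg17, -0.12 for Mir22hg, -0.19 for Epb41l4aos, -0.06 for Snhg6 and 0.13 for Snhg8, and those of Dleu2 (-0.34) and the other hosts stand beside their results; Snhg18 could not be fitted without it. Neuron markers had a median of 35.4 FPKM, and their summed level was 5717 to 5767 CPM in saline and 5745 to 6211 CPM in morphine libraries. Of these 10 markers, 8 were higher and 2 lower in morphine, with a median log2 fold change of 0.09. For 4 of them every morphine library lay above every saline library, as for 5.98% of all genes. The part of this in the host genes' levels was not tested. In bulk tissue, fewer cells of a type and less RNA per cell cannot be told apart.

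Levels in FPKM, which divide by the merged exons of all transcripts of a gene, spread widely among the host genes. For some hosts that length is most of the gene, such as 3760 of 4118 bp for Gas5. The order of hosts by FPKM therefore also depends on it. Snhg11 was by far the highest, at 112 to 164 FPKM over the 6 libraries. Snhg14, a very long transcript of the imprinted Prader-Willi and Angelman region that runs antisense into Ube3a, was at 21.5 to 28.4 FPKM, and Mir124a-1hg, a host of the neuronal microRNA miR-124, at 19.8 to 28.8 FPKM. Snhg14 and Mir124a-1hg do not differ beyond their spread. Next came Mir124-2hg, another host of miR-124, at 10.8 to 14.9 FPKM.
Mir22hg, the host of miR-22, ranged from 6.96 to 8.50 FPKM and Mir9-3hg from 6.35 to 9.04 FPKM, and these ranges overlap. Epb41l4aos was at 3.56 to 6.55 FPKM, Snhg8 at 3.46 to 4.63 FPKM and Snhg6 at 3.30 to 4.59 FPKM, again with overlapping ranges. Gas5, the growth arrest transcript whose introns carry a row of box C/D snoRNAs, was at 2.35 to 3.21 FPKM, beside Dleu2 at 2.39 to 3.35 FPKM.
The other tested hosts had means of 0.204 FPKM (Mir17hg, host of the cluster from miR-17 to miR-92a) to 2.43 FPKM (Snhg10). The 4 hosts that remain did not reach 10 counts in 3 libraries and were not tested. Mir142hg and Mir155hg, hosts of microRNAs of blood and immune cells, had at most 6 counts and 1 count in a library, and Mir133a-1hg, a host of muscle microRNAs, at most 4 counts. Snhg9 had 6 counts in saline library 3 and is listed at 0 in the other 5 libraries.

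**Figure D1:**
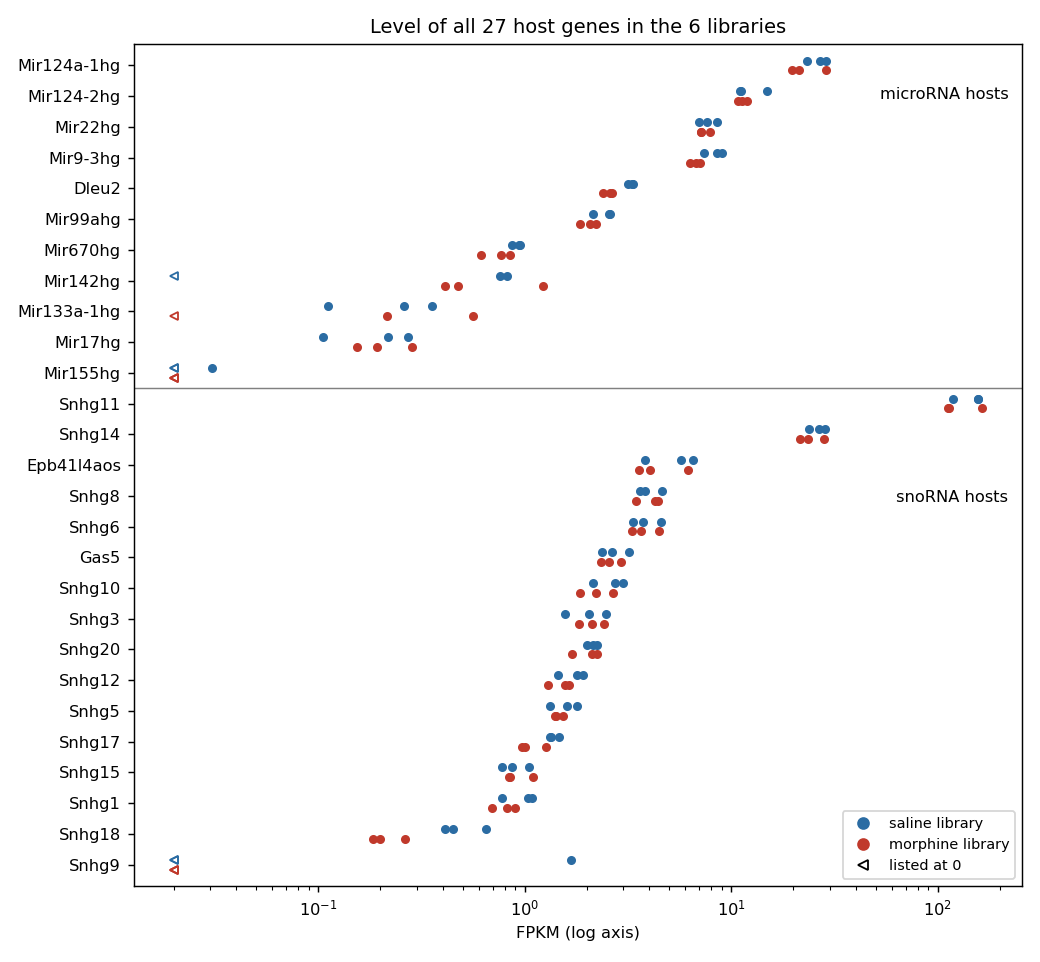
FPKM on a log axis for the 27 host genes, microRNA hosts above and snoRNA hosts below the line, each sorted by mean; a point is 1 library (blue saline, red morphine) and an open triangle a library listed at 0. Snhg11 lies at 112 to 164 FPKM, and most hosts overlap between the groups while Dleu2, Mir9-3hg, Mir670hg, Snhg17 and Snhg18 do not.

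The microRNA hosts Dleu2, Mir9-3hg and Mir99ahg and the snoRNA hosts Snhg17 and Snhg18 were lower in morphine at an unadjusted p under 0.05, and no host was higher. In edgeR's quasi-likelihood test, 3 of 8 tested microRNA hosts and 2 of 15 tested snoRNA hosts were thus lower, where 4.96% of all 18970 genes tested were lower and 2.77% higher. Snhg18 had to differ to be in this count, because it reached 10 counts only in the saline libraries. After adjustment 0 of 23 hosts were under 0.05 in edgeR, which called 0.0% of all genes. In DESeq2 0 hosts were under 0.05 after adjustment, as were 0.0843% of all genes. DESeq2 gave no adjusted p for Snhg18, Mir670hg and Epb41l4aos, among others not listed. At an unadjusted p under 0.05 it had 3 hosts and 5.13% of all genes.
Every morphine library lay below every saline library for 3 microRNA hosts (Dleu2, Mir9-3hg and Mir670hg) and 2 snoRNA hosts (Snhg17 and Snhg18), where 7.32% of all genes did so; Snhg18, kept by its saline counts alone, had to be lower in morphine here too. The opposite order was seen for 0 hosts and 5.98% of all genes.

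Dleu2, on chromosome 14 (61602839 to 61682373, minus strand, GRCm38), is the non-coding host of miR-15a and miR-16, a pair known for holding back cell division. It had 37.4, 36.1 and 37.4 normalized CPM in saline libraries 1 to 3 and 27.4, 29.0 and 30.4 in morphine libraries 1 to 3. The saline libraries lay within 2 CPM of each other and the highest morphine library was below all of them. The mean ± SD of 3 libraries was 36.9 ± 0.756 normalized CPM in saline and 29.0 ± 1.5 in morphine. As a log2 fold change this was -0.35 (standard error 0.07, 95% interval -0.50 to -0.19), a level 21.5% lower in morphine (edgeR, adjusted p = 0.47).
Its unadjusted p stayed under 0.05 under all 13 alternative settings, with log2 fold changes of -0.39 to -0.28. The adjusted p ran from 0.029 to 0.98 over these settings, and passed 0.05 with no filter on low counts (0.029), where 0.878% of all genes did, and without saline library 1 (edgeR, 0.033), where 0.996% did.

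Mir9-3hg, on chromosome 7 (79500026 to 79534403, plus strand), is a host of miR-9. It had 36.7, 39.6 and 32.1 normalized CPM in the saline libraries and 29.9, 30.7 and 28.2 in the morphine libraries. The groups did not overlap, with saline library 3 only just above morphine library 2. On the log2 scale morphine stood at -0.29 (standard error 0.09, 95% interval -0.48 to -0.10; edgeR, adjusted p = 0.59). Under the 13 alternatives it ranged from -0.36 to -0.22, each with an unadjusted p under 0.05, and the adjusted p from 0.14 to 0.98.

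Mir99ahg, on chromosome 16 (77236317 to 77773427, plus strand), spans 537111 bp with its 3 microRNAs in introns. It had 30.0, 37.4 and 36.4 normalized CPM in the saline libraries and 29.9, 31.5 and 26.9 in the morphine libraries. Saline library 1 fell among the morphine libraries, so the groups overlapped. The fold change on the log2 scale was -0.24 (standard error 0.10, 95% interval -0.45 to -0.02; edgeR, adjusted p = 0.63).
Without saline library 1 the log2 fold change of Mir99ahg was -0.33, with an adjusted p of 0.047 in edgeR (0.996% of all genes passed there), and the adjusted p ran from 0.047 to 0.98 over the settings. Without saline library 2 or 3 or morphine library 1 or 3 it was at -0.18, -0.19, -0.25 and -0.17 and no longer had an unadjusted p under 0.05.

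Mir670hg, on chromosome 2 (94160636 to 94264918, minus strand), had 2.59, 2.40 and 2.61 normalized CPM in the saline libraries and 2.16, 2.32 and 1.73 in the morphine libraries. Its groups did not overlap, but counts were only 39 to 60 per library, and the log2 fold change was -0.30 (standard error 0.20, 95% interval -0.75 to 0.16; edgeR, adjusted p = 0.72). Mir17hg, the cluster that MYC is known to drive, was at 8 to 22 counts per library and at 0.09, with a wide interval of -0.82 to 0.99.

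The hosts of miR-124 and miR-22, the microRNA hosts of highest mean FPKM here beside Mir9-3hg, did not pass the test. Mir124a-1hg had 110, 138 and 130 normalized CPM in the saline libraries and 104, 137 and 96.8 in the morphine libraries. In both groups 1 library lay apart, since saline library 1 was near the lower morphine libraries and morphine library 2 near the higher saline ones. This gave a log2 fold change of -0.16 (95% interval -0.44 to 0.11; edgeR, adjusted p = 0.75), and it depended on single libraries. It was -0.25 without saline library 1 and -0.33 without morphine library 2, both with an unadjusted p under 0.05, but -0.09 without saline library 2, -0.11 without morphine library 1 and -0.06 without morphine library 3. With no filter on low counts Mir124a-1hg was at -0.16 with an unadjusted p under 0.05 in edgeR, as were 7.87% of all genes.
Mir124-2hg had 88.2, 67.8 and 66.3 normalized CPM in the saline libraries and 68.9, 71.1 and 66.1 in the morphine libraries. Only saline library 1 was set apart, on the high side, unlike for Mir124a-1hg. Its log2 fold change of -0.11 (95% interval -0.33 to 0.11) turned to 0.03 without that library.
Mir22hg had 13.2, 16.4 and 14.7 normalized CPM in the saline libraries and 15.3, 13.6 and 14.0 in the morphine libraries. These overlapped throughout, at a log2 fold change of -0.04 (95% interval -0.29 to 0.20) that turned to 0.04 without saline library 2.

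**Figure D2:**
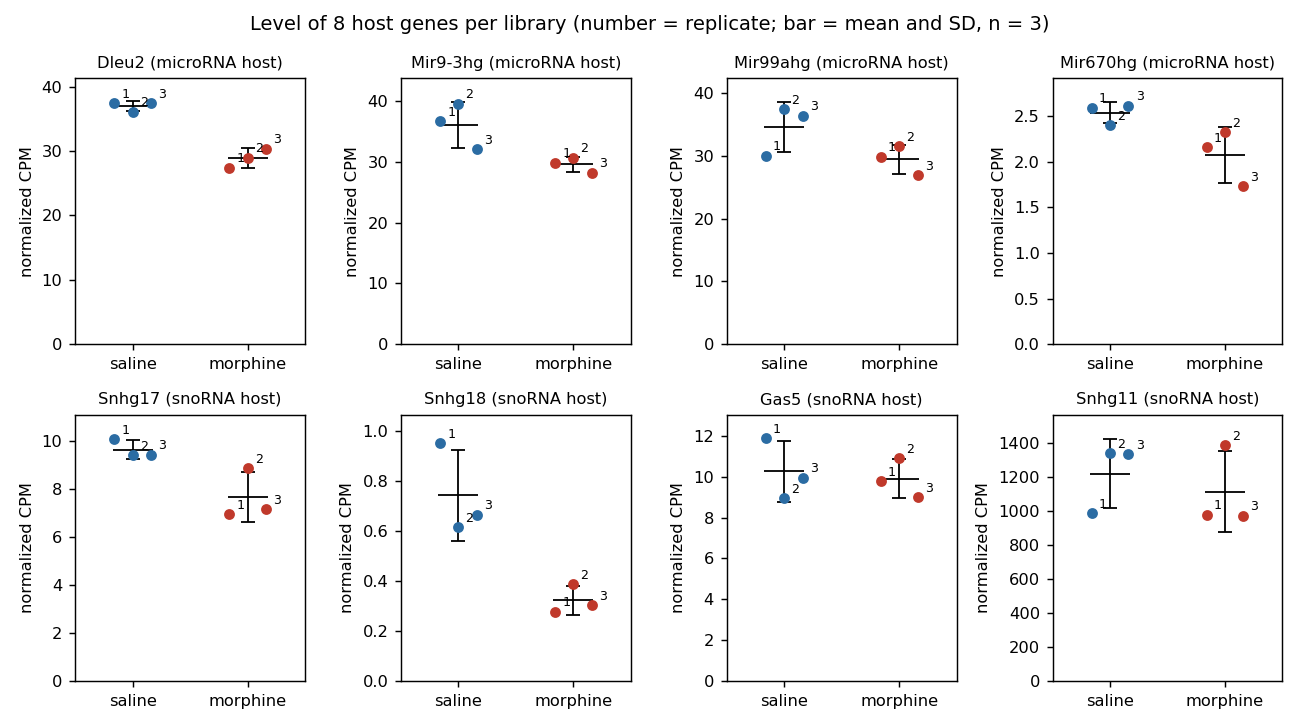
Normalized CPM of 8 host genes, with 1 point per library (number = replicate, blue saline, red morphine) and bars for the mean and SD of 3 libraries; each axis starts at 0. Dleu2, Mir9-3hg, Mir670hg, Snhg17 and Snhg18 show no overlap between the groups, while Mir99ahg, Gas5 and Snhg11 do.

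Among the snoRNA hosts, Snhg17 had 10.1, 9.43 and 9.45 normalized CPM in the saline libraries and 6.97, 8.88 and 7.18 in the morphine libraries. The saline libraries were close together, and morphine library 2 lay nearer to them than the other morphine libraries. Morphine over saline came to -0.34 on the log2 scale (standard error 0.13, 95% interval -0.62 to -0.05; edgeR, adjusted p = 0.62). Its unadjusted p was no longer under 0.05 without morphine library 1 (log2 fold change -0.27), without morphine library 3 (-0.29), in DESeq2 (-0.33) or in limma on log2(FPKM + 0.1) (-0.33) and log2(FPKM + 1) (-0.20).
Snhg17 lies on chromosome 2 (158353700 to 158361580, minus strand) and, in the merged annotation, its 3 snoRNAs overlap exons of some transcripts and introns of others. Reads of the snoRNAs shown above could thus enter its count, and such reads are uncertain for Gm24411 and Gm23925, which are nearly identical.

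Snhg18, on chromosome 15 (32240565 to 32244662, minus strand), had 22, 13 and 13 counts in the saline libraries and 5, 7 and 7 in the morphine libraries, or 0.949, 0.613 and 0.664 against 0.277, 0.386 and 0.303 normalized CPM. Every morphine library was below every saline library, at a few counts per library. The difference was -1.20 on the log2 scale (standard error 0.39, 95% interval -2.07 to -0.34; edgeR, adjusted p = 0.60). In DESeq2, at the same log2 fold change, the unadjusted p was over 0.05.
It reached 10 counts in 3 saline and 0 morphine libraries, so with any saline library left out, or with 10 counts asked of all 6 libraries, it did not enter the test.

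Snhg11, with 17673 to 28377 counts the most counted host, had 985, 1338 and 1332 normalized CPM in the saline libraries and 977, 1388 and 972 in the morphine libraries. The lowest saline library matched the lower morphine libraries, and the highest value of all was in morphine library 2. Its log2 fold change was -0.13 (95% interval -0.46 to 0.20; edgeR, adjusted p = 0.82). Without saline library 1 it was -0.26 and without morphine library 2 it was -0.32, both with an unadjusted p under 0.05, while it was -0.06 without saline library 2 or 3, -0.05 without morphine library 1 and -0.04 without morphine library 3.
Snhg14 was likewise higher in saline libraries 2 and 3 and morphine library 2 than in the others, at 607, 697 and 739 normalized CPM in saline and 625, 727 and 572 in morphine. Its log2 fold change was -0.09 (95% interval -0.30 to 0.12), with -0.16 without saline library 1, where its unadjusted p was under 0.05, and -0.19 without morphine library 2, but -0.02 without saline library 3 and -0.01 without morphine library 3. GENCODE places 208 snoRNA genes inside it, in repeated arrays whose reads may map to several places, and 6.9% of its exonic bases are antisense to Ube3a, so its level is uncertain.

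Gas5 had 11.9, 8.96 and 9.96 normalized CPM in the saline libraries and 9.79, 10.9 and 9.0 in the morphine libraries. The groups overlapped, at a log2 fold change of -0.05 (95% interval -0.36 to 0.25) that turned to 0.06 without saline library 1 and to 0.01 without morphine library 3. Epb41l4aos had 2.42, 2.83 and 1.63 normalized CPM in the saline libraries and 1.77, 2.65 and 1.56 in the morphine libraries.
Both groups of Epb41l4aos spread over the same range, and its log2 fold change was -0.22 (95% interval -0.84 to 0.41), from -0.47 without morphine library 2 to -0.04 without saline library 2. Snhg8 had 3.88, 3.11 and 3.27 normalized CPM in saline and 2.99, 3.75 and 3.72 in morphine, and Snhg6 had 4.18, 5.28 and 3.83 against 5.20, 4.14 and 3.85. Neither showed an order between the groups, at log2 fold changes of 0.03 and -0.02 that both changed sign without saline library 2, morphine library 2 or morphine library 3.
The other tested snoRNA hosts, Snhg1, Snhg3, Snhg5, Snhg10, Snhg12, Snhg15 and Snhg20, overlapped between the groups, at log2 fold changes of -0.24 (Snhg1) to 0.08 (Snhg3).

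**Figure D3:**
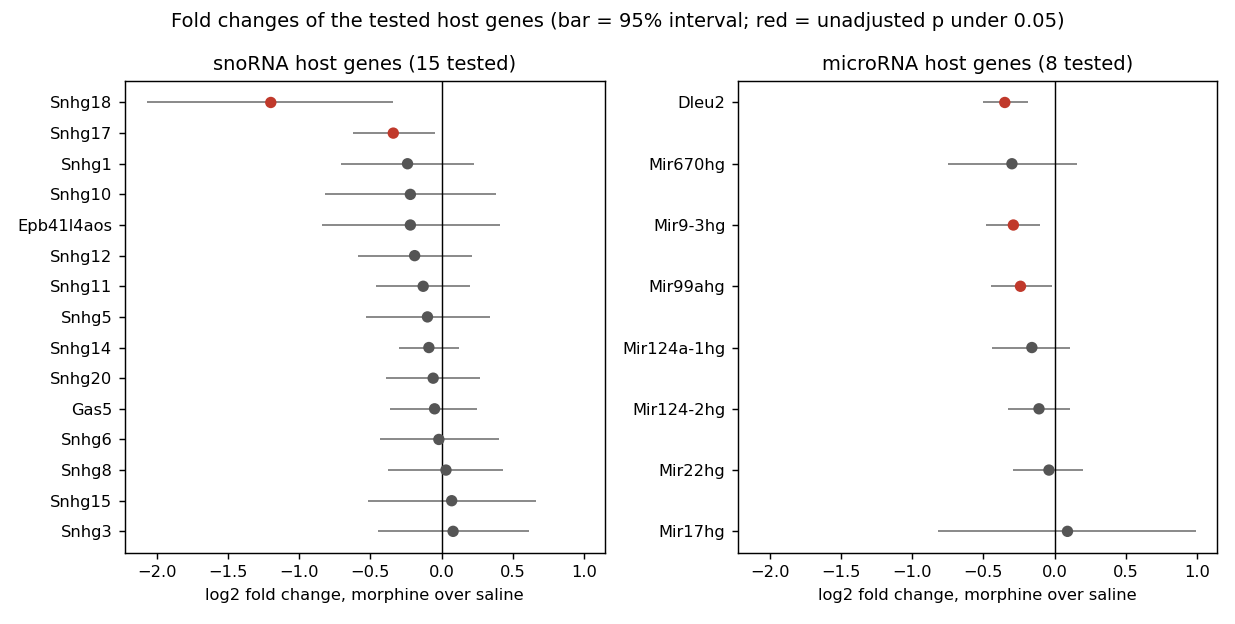
Log2 fold change of morphine over saline for the 15 tested snoRNA hosts (left) and the 8 tested microRNA hosts (right), with 95% intervals from edgeR; red points had an unadjusted p under 0.05. All 5 red points lie below 0, Snhg18 furthest at -1.20 with an interval of -2.07 to -0.34. Snhg18 was tested only because its saline libraries reached the count filter, so it had to lie below 0.

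Among the 23 tested hosts, 12 of 15 snoRNA hosts and 7 of 8 microRNA hosts had a log2 fold change below 0, beside 52.5% of all genes tested. The snoRNA hosts include Snhg18, which its saline counts alone kept in the test and which had to be lower. The median was -0.10 over the snoRNA hosts and -0.20 over the microRNA hosts, beside -0.01 over all genes tested; whether snoRNA and microRNA hosts differ from each other was not tested. With 1 library left out the snoRNA host median ran from -0.14 (without morphine library 2) to -0.05 (without saline library 2) and -0.04 (without morphine library 3), and the microRNA host median from -0.30 (without morphine library 2) to -0.13 (without morphine library 3). Within a library, the median deviation of the microRNA hosts from their own mean over the 6 libraries was 0.18, 0.16 and 0.14 on the log2 scale in saline and -0.11, -0.01 and -0.16 in morphine. For the snoRNA hosts it was 0.18, 0.17 and -0.05 in saline and -0.07, 0.11 and -0.20 in morphine, with overlap.
Several hosts moved together by library and not by treatment alone. Snhg11, Snhg14 and Mir124a-1hg were all below their mean in saline library 1 and morphine libraries 1 and 3, and above it in saline libraries 2 and 3 and morphine library 2. A list of 7 long nuclear RNAs, Malat1, Meg3, Miat and Rian among them, had the same signs by library, with median deviations of -0.16, 0.21 and 0.18 in saline and -0.16, 0.14 and -0.24 in morphine. The share of mitochondrial counts was 0.857% and 0.816% in morphine libraries 1 and 3 and 0.670% to 0.787% in the other libraries. The part of these values in the host genes' levels was not tested. Dleu2 had the same sign in 4 of the 6 libraries and the opposite one in saline library 1 (0.19) and morphine library 2 (-0.17).

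**Figure D4:**
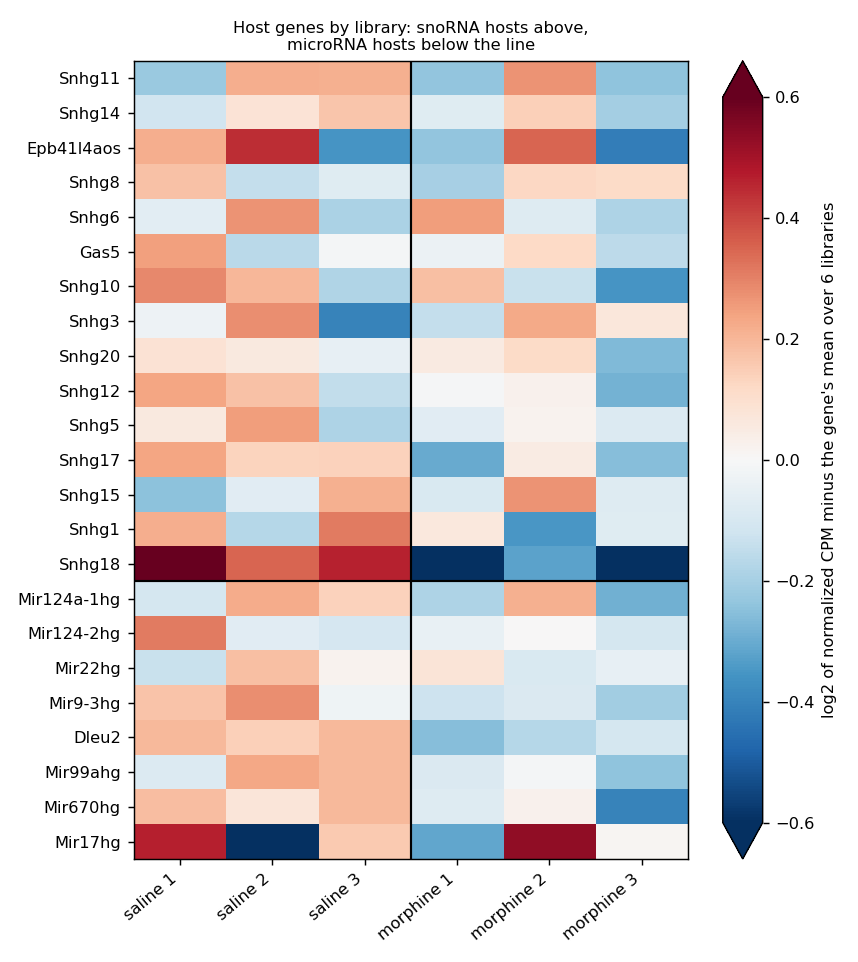
Log2 of normalized CPM minus the gene's mean over the 6 libraries, for the 15 snoRNA hosts above the horizontal line and the 8 microRNA hosts below it; red is above and blue below the mean, and the scale ends at 0.6 either way. Dleu2 is red in the 3 saline and blue in the 3 morphine libraries, while Snhg11, Snhg14 and Mir124a-1hg are blue in saline library 1 and red in morphine library 2.

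Introns of the long hosts hold other entries of the table, most of them of the class TEC, which GENCODE keeps for transcripts still to be proven by experiment. Over all 1683 tested TECs the median log2 fold change was -0.24, with 77.8% of them lower in morphine and 18% lower at an unadjusted p under 0.05. Of those on the host's strand, 2 of 2 in Dleu2 and 3 of 3 in Mir9-3hg were lower in morphine, 1 and 2 of them at an unadjusted p under 0.05. Within Mir99ahg 7 of 12 were lower, 1 of them at that p, and within Snhg14 2 of 2, with 0 at that p in edgeR.
Summed over the intronic TECs, Dleu2 introns had 20.6, 18.1 and 23.2 normalized CPM in saline and 15.1, 19.4 and 16.4 in morphine. These sums overlapped, which the exonic counts of Dleu2 did not. Of the 2 TECs summed, Gm37472 overlapped between the groups and Gm37420 did not. The sum leaves out Gm27010, a lincRNA on the strand of Dleu2 with 0 exonic bases in common. Gm27010 had 4.87, 4.57 and 5.16 normalized CPM in saline and 2.54, 4.25 and 3.90 in morphine, without overlap. Its log2 fold change was -0.45 (standard error 0.20), and 7.32% of all genes showed this order. Chosen after its values were seen, Gm37420 in Dleu2 was at -0.44 (standard error 0.14) and A330074H02Rik in Mir9-3hg at -0.46 (standard error 0.16), the entry of lowest p in each host.

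Neighbouring genes share sequence with some hosts, and since no source used here gives the strand setting of the counting, reads of antisense partners cannot be told apart. For Snhg3, 71.5% of exonic bases are antisense to Gm17300 and 13.7% are shared with Rcc1 on the same strand. For Mir22hg, 10.7% are shared with Tlcd2, and for Snhg6, 11.1% are antisense to Mcmdc2. Dleu2 runs opposite to Trim13, a ubiquitin ligase gene, with no exonic base in common, and Trim13 lay at -0.06 on the log2 scale (standard error 0.17). Gas5 runs opposite to Zbtb37, a zinc finger gene without shared exonic bases, and Zbtb37 was at -0.20 (standard error 0.05; edgeR, adjusted p = 0.57). It was below saline in every morphine library, as were 7.32% of all genes.

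Many other snoRNAs lie in genes that also make a protein. Over 69 tested protein-coding genes with a named snoRNA within them on their strand in GENCODE, the median log2 fold change was 0.03, and an unadjusted p under 0.05 was reached by 1 on the lower side and 0 on the higher side. Other non-coding genes tagged as hosts, 110 of them tested, had a median of -0.14, and 13.6% were lower and 2.73% higher at that p. The same shares were 18% and 0.891% of TECs, 10.6% and 1.28% of sense intronic transcripts, and 4.96% and 2.77% of all genes. All lincRNAs were at a median of -0.03 and all processed transcripts at -0.02, the classes to which most of the host genes belong.
Genes that act on the small RNAs or on their hosts were taken from fixed lists. Of 19 tested genes of microRNA processing, 3 were lower in morphine at an unadjusted p under 0.05 and 0 were higher, beside 4.96% and 2.77% of all genes, and the list median was -0.03. Tnrc6a, which builds the silencing complex with Argonaute, had 106, 113 and 110 normalized CPM in saline and 86.1, 102 and 92.6 in morphine, so that its log2 fold change came to -0.23 (standard error 0.07). Ddx17, a helicase of the Drosha complex, was at -0.20 (standard error 0.06) and Tut4, which adds uridines to let-7 precursors, at -0.19 (standard error 0.06). All 3, named for their low p, were below saline in every morphine library, as were 7.32% of all genes. Their adjusted p in edgeR was 0.59 for Tnrc6a and Ddx17 and 0.6 for Tut4.
Tnrc6c, of the next lowest p on this list, was at -0.12 (standard error 0.06) and did not pass. Of 18 genes for the proteins of snoRNA particles and their assembly, 0 passed an unadjusted p of 0.05 in edgeR. Naf1, an assembly factor of H/ACA particles, was at -0.12 (standard error 0.08) and Nhp2, a core H/ACA protein, at 0.18 (standard error 0.13).
Of 19 genes of nonsense-mediated decay 0 passed, with Upf3a at -0.19 (standard error 0.12) and the helicase Upf1 at 0.09 (standard error 0.05). Of 14 genes for lariat release and the exosome 0 passed, with the exosome subunit Exosc8 at -0.20 (standard error 0.10) and the nuclear exonuclease Xrn2 at -0.15 (standard error 0.08). Without saline library 1, or without morphine library 2, 7 genes of these 4 lists had an unadjusted p under 0.05 in place of 3, as the share of all genes went from 7.72% to 11.7% and 10.9%.

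Many snoRNA hosts and ribosomal protein genes are known to start transcription in a run of pyrimidines, the 5′ terminal oligopyrimidine tract. RefSeq start regions of GRCm38.p6 were searched on the transcript strand for a C followed by 5 or more pyrimidines that begins within 10 bases of the start. This was found in 6 of 14 snoRNA hosts with a start in the table (42.9%), in 3 of 7 microRNA hosts (42.9%), in 50.8% of 63 cytoplasmic ribosomal protein genes and in 20.4% of all 27025 genes. The runs of Gas5, Snhg12 and Snhg18 are shown in capitals, as examples at mean levels of 2.68, 1.61 and 0.359 FPKM. The regions are chr1:161035155-161035178 (plus), chr4:132308666-132308691 (plus) and chr15:32244649-32244676 (minus).
Gas5 start: gccatctcagCCTTTCggagctgt
Snhg12 start: cgttctcagtCCTTTCTCgcttcatc
Snhg18 start: ccttcccaggCCCCTCCTCTagccccgc
Gas5 and Snhg12 overlapped between the groups, at log2 fold changes of -0.05 and -0.19, and Snhg18, which entered the test only because its saline libraries reached 10 counts, was at -1.20.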

How the data were processed

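RNA of the mPFC was measured in 3 saline and 3 morphine libraries, all of which were used and grouped by their labels. The authors deposited 1 table with counts as whole numbers and with FPKM values for each gene in each library; the FPKM values are the deposited counts divided by a gene length and a library factor, and that length matched the merged exons of GENCODE vM21 (GRCm38, the authors' build mm10) within 1% for 98.1% of genes and all 27 hosts. The submitters' processing notes name, without a role, HISAT2 2.1.0, HTSeq 0.11.2 and StringTie 1.3.3. The kit kept strand, but whether counting used it is not given in the sources used. Of the gene identifiers, 31748 matched GENCODE and 15 did not.

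The 18970 genes that reached 10 counts in 3 or more libraries were scaled by TMM and tested, two-sided, with edgeR's (4.0.16, under R 4.3.3) quasi-likelihood F statistic, with Benjamini-Hochberg adjustment over all of them. A standard error is the log2 fold change over the square root of F. The test was tried on simulated data first. As alternatives, each library was left out, limma 3.58.1 was run on log2(FPKM + 1) or log2(FPKM + 0.1) for genes at 0.1 FPKM or more in 3 or more libraries, DESeq2 1.42.0 and RLE factors replaced edgeR's defaults, the filter was dropped or asked of all 6 libraries, and replicate numbers entered as a block. No replicate pair was as close as sampling noise (chi-square 2.91 to 14.7 times its degrees of freedom). Total counts of 17984153 to 23529592 limit the precision for hosts under about 10 counts.

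Values per library are given for hosts whose groups do not overlap, hosts with an unadjusted p under 0.05, the 6 snoRNA and 6 microRNA hosts of highest mean FPKM, and Gas5, Dleu2 and Epb41l4aos, and genes of the lists by lowest p, up to 4 a list. The hosts, lists and tests were chosen with earlier results of these data known, and the marker lists were written from general knowledge. Sequences are from RefSeq (GRCm38.p6) and the GENCODE transcripts.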

Additional observations from a re-analysis of the deposited data

How the results depend on the processing

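Dleu2 and Mir9-3hg had an unadjusted p under 0.05 in all 13 alternatives, Mir99ahg in 7 of 13, Snhg17 in 8 of 13 and Snhg18 in 8 of the 9 in which it could be fitted. Snhg18 did not reach the filter without any 1 saline library or with 10 counts in all 6 libraries. Wherever 10 counts in 3 libraries were asked, its saline counts alone kept Snhg18, so its passes there are no support. The number of all genes at that p went from 1465 to 974 in DESeq2 and 2499 with no filter on low counts, and to between 748 (without morphine library 3; 754 without morphine library 1) and 2179 (without saline library 1) with 1 library left out. The snoRNA hosts at that p numbered 2, with 0 in DESeq2, 1 with 10 counts in all 6 libraries and on either FPKM scale, and 1 to 3 with 1 library left out (1 without saline library 2 or 3 or morphine library 1 or 3). Hosts past an adjusted p of 0.05 went from 0 to 1 with no filter (Dleu2) and to at most 2 with 1 library left out (Dleu2 and Mir99ahg, without saline library 1), with 0 otherwise; in these 2 settings 279 and 186 of all genes passed, against 0 in the edgeR fit as reported. Genes of the 4 machinery lists at an unadjusted p under 0.05 numbered 2 to 7 with 1 library left out. The median of the microRNA hosts was -0.13 on log2(FPKM + 1) and -0.30 (without morphine library 2) to -0.13 (without morphine library 3) with 1 library left out, and -0.27 without saline library 1. Among the hosts with values per library, some log2 fold changes turned sign with 1 library left out. They were those of Gas5 (-0.14 to 0.06), Mir124-2hg (-0.18 to 0.03), Mir22hg (-0.12 to 0.04), Snhg6 (-0.15 to 0.13) and Snhg8 (-0.04 to 0.13). None of these hosts had an unadjusted p under 0.05 in any setting, and the cause was not tested. Without morphine library 2, 22 of 23 tested hosts were below 0, against 19 in the fit as reported. Hosts without values per library thus turned sign there too. In that setting 1298 of all 18771 genes tested were lower at an unadjusted p under 0.05 in edgeR, against 940 of 18970 in the fit as reported. The median over all genes was -0.02 there and -0.01 in the fit as reported, and their share below 0 there is not given here. With the replicate number as a block, the same 5 hosts had an unadjusted p under 0.05 and 1315 genes in all. Same-numbered samples did not deviate together (correlations 0.015, 0.001 and -0.021), and the labels state no pairing. This cannot exclude that samples were paired, but the replicate block is not read as a paired analysis.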
